A study of Homo sapiens with 8 samples.

Results

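Activin, bone morphogenetic proteins (BMPs) and transforming growth factor beta (TGF-beta) are secreted ligands of one family, and 10 genes of their signalling were followed in KYSE850 cells. These were the ligand genes INHBA, BMP4, BMP6, TGFB1 and TGFB2, the activin inhibitor FST, the latency protein LTBP1, the receptors TGFBR1 and TGFBR2 and the inhibitory SMAD7. They were 10 of 20249 genes with a named probe. They were chosen by their role in the pathway and on values of these same arrays, because INHBA differed widely between arrays of one group and lay higher with KHSRP siRNA in each set of arrays. The siRNA differences of the 10 genes are therefore a description and carry no test. KYSE850 is an established human esophageal squamous cell carcinoma line. The control group was 4 arrays of cells that had received control siRNA, and the KHSRP group was 4 arrays of cells whose siRNA targeted KHSRP. KHSRP protein binds RNA and acts in mRNA decay and miRNA maturation. An siRNA lowers the mRNA it matches. The labels name no further genotype or agent, no time of harvest, and not which KHSRP siRNA each array stands for. Nothing in the labels says that the arrays of a group came from separate cultures, so the p-values measure the spread between these samples, which may be technical.

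Ligands of this family bring together type I and type II receptor kinases, which phosphorylate SMAD proteins that then enter the nucleus with SMAD4. TGF-beta and activin act mainly through SMAD2 and SMAD3, and BMPs through SMAD1, SMAD5 and SMAD9. Follistatin, the product of FST, binds activin and blocks it, LTBP1 holds latent TGF-beta in the matrix, and SMAD7 is a feedback inhibitor that the pathway itself induces. In squamous epithelia TGF-beta is known for restraining proliferation and for inducing matrix genes, and BMPs for inducing the ID genes.

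INHBA and FST are an activin subunit gene and the gene of its inhibitor, and their mRNAs moved together over the arrays. Their RefSeq promoter windows (assembly GRCh38.p14) are shown for that reason, 5′ to 3′ on the strand of the gene. Each runs from 250 bases before the start of transcription to 50 bases after it. The INHBA window is chr7:41703041-41703340 on the minus strand, and the FST window is chr5:53480379-53480678 on the plus strand. Capitals mark matches, on either strand, to 4 motifs: the SMAD half-site CAGAC, the AP-1 site TGACTCA, the cyclic AMP response element TGACGTCA and the TATA box TATAAA.
INHBA: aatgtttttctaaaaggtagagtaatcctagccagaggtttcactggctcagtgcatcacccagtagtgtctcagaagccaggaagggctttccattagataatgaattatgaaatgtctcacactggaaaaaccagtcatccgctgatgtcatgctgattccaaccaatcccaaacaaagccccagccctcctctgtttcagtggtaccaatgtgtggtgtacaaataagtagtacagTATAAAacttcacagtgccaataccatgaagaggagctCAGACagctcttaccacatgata
FST: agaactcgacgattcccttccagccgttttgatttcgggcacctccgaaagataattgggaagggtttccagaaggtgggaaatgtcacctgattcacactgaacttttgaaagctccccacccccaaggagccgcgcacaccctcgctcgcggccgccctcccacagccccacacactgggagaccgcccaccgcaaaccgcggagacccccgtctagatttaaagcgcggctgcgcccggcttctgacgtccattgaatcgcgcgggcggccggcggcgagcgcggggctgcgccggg
In the INHBA window TATAAA lay at bases 240 to 245 and CAGAC at bases 278 to 282, counted from the first base shown, and in the FST window none of the 4 motifs was found. Of 35116 RefSeq windows of this length, 45.3% held CAGAC, 11.53% TATAAA, 4.95% TGACTCA and 1.85% TGACGTCA. The 2 windows also differed in base composition, with 43.3% G and C for INHBA and 63.7% for FST against a median of 58.7% over all windows. A match of letters is a description and shows no binding.

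The study lists INHBA, BMP6 and LTBP1 among predicted targets of both miR-130b and miR-301a, a list it drew from mRNAs that were higher with KHSRP siRNA on these same arrays. Beyond the arrays, the study reported higher BMP6 and LTBP1 mRNA by quantitative PCR, and higher BMP6 protein, with KHSRP siRNA. The RefSeq mature sequences are shown because both miRNAs share the seed, bases 2 to 8, which is in capitals.
hsa-miR-130b-3p: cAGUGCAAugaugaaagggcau
hsa-miR-301a-3p: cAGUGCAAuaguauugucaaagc
Neither miRNA was measured on these arrays as used here.

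Between 45.1% and 49.4% of the 42405 probes were well above background on an array by the scanner's own criterion, no spot was saturated, and 18761 probes could be tested, 15488 of them with a symbol, for 12125 genes. Levels are log2 signals relative to the 75th percentile of the array, so that 0 stands for that percentile. KHSRP mRNA (A_23_P16157) was 5.81 to 6.39 on the control arrays and 2.52 to 2.88 on the KHSRP siRNA arrays, a log2 difference of -3.37 (SE 0.16, limma adjusted p = 5.95e-05, 9.66% of the control level). Slide 1 carried replicates 1 and 2 from each group and slide 2 carried replicates 3 and 4. Over all probes the arrays fell into 2 sets that crossed the siRNA groups: control replicates 1 and 3 with KHSRP replicates 1 and 4, and control replicates 2 and 4 with KHSRP replicates 2 and 3. Deviations from the group means correlated at 0.29 to 0.84 within a set and at -0.75 to -0.13 between the sets (18760 probes). In the value table the authors deposited, whose columns for KHSRP siRNA replicates 3 and 4 match the scanner files of each other, the first set carries odd numbers and the second even numbers. They are called the odd and the even set here, while replicate numbers are those of the scanner files. The sets were read from the data, so nothing is tested between them.

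Markers of squamous epithelium, such as keratins and desmosomal cadherins, were present, with 9 of 10 well above background on all 8 arrays. Of fibroblast markers only COL1A1 was, and the other 5, PDGFRB and DCN included, were so on none, as were all 3 endothelial markers. Of leukocyte markers, PTPRC was well above background on 4 arrays, CD3E on 5 and CD68 on all 8. The log2 of the summed signal of the squamous list was 9.01 to 9.33 on the odd set and 7.45 to 8.12 on the even set. It ranged from 7.45 to 9.15 in control cells and from 7.65 to 9.33 with KHSRP siRNA. SFN was the brightest gene of that list, at 7.03 to 8.37, so it weighed most in the sum. The summed leukocyte list, in which CD68 alone was well above background on all arrays, was 1.59 to 2.25 on the odd set and -0.04 to 0.95 on the even set. The summed fibroblast list, to which COL1A1 alone gave a signal well above background, ran the other way, from -1.68 to -1.37 on the odd set and from -1.11 to -0.71 on the even set. These lists moved with the sets, as did several members below, and their part in those differences was not tested.

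INHBA encodes the subunit that forms activin A. Its log2 level (A_23_P122924, NM_002192) on control siRNA replicates 1 to 4 was 2.48, 0.20, 3.14 and -0.78. On KHSRP siRNA replicates 1 to 4 it was 3.69, 1.42, -0.10 and 4.15. The groups overlapped widely, since the highest levels in both came from the odd set and the lowest from the even set. Control arrays alone spanned a 15.1-fold range of INHBA signal. The array design carries 10 spots of this probe, and their SD on an array was only 0.048 to 0.12, so the spread between arrays was far above that between spots.

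The mean INHBA level was 1.26 ± 1.85 in control cells and 2.29 ± 1.99 after KHSRP siRNA (SD, n = 4 each), a difference of 1.03 (SE 1.15) or 2.04-fold. The difference is smaller than the spread within either group. Between arrays with the same number in the value table, INHBA was higher with KHSRP siRNA in 4 of 4 pairs, by 1.21, 1.22, 1.02 and 0.68 (mean 1.03, SD 0.25). It was 1.11 higher within the odd set, 0.95 within the even set, 1.21 within slide 1 and 0.85 within slide 2. The difference between sets was larger than that between siRNA groups. INHBA was 3.10 higher on the odd set among control arrays and 3.26 higher among KHSRP siRNA arrays, on average 9.08-fold. Of the 18761 tested probes, 1 had a larger difference between sets, and 6 had a larger SD within groups. INHBA was chosen for this spread and for lying higher with KHSRP siRNA in each set. Its rank and its differences within sets and pairs are therefore a description only. The pairs were also chosen on these same arrays. When 1 array was left out, the INHBA difference ran from 0.35 without control siRNA replicate 4 to 1.83 without KHSRP siRNA replicate 3. It was under 1.03 by over 1.5 times without control replicate 2 or 4 or KHSRP replicate 1 or 4, and over it by as much without control replicate 3 or KHSRP replicate 3. Leaving out 1 array leaves the sets unequal between the groups, while leaving out whole pairs gave an INHBA difference of 0.97 to 1.15.

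**Figure D1:**
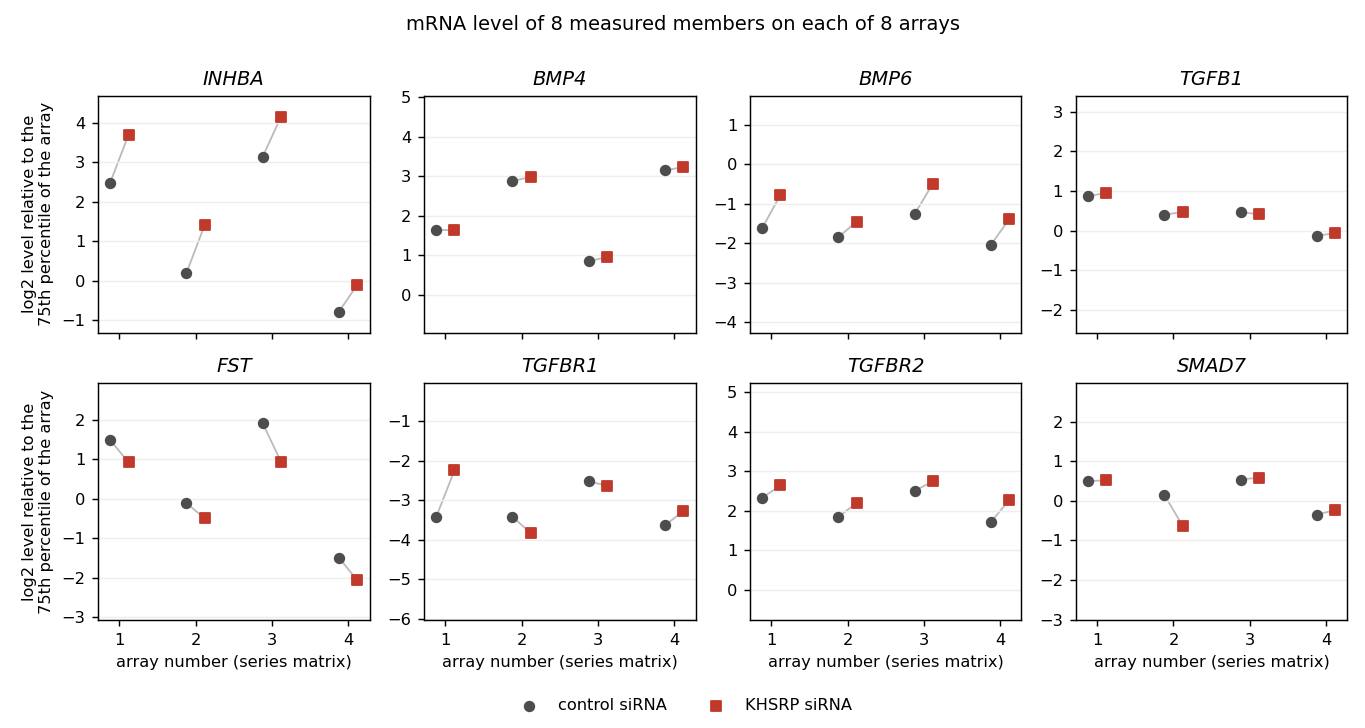
Log2 level of each tested member, relative to the 75th percentile of its array, on the 4 control siRNA arrays (circles) and the 4 KHSRP siRNA arrays (squares), by array number in the deposited value table; each panel spans the same range of log2 units and grey lines join arrays of the same number. INHBA and FST are higher on arrays 1 and 3 than on 2 and 4, BMP4 is lower there, and INHBA lies higher and FST lower with KHSRP siRNA in all 4 pairs.

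FST, whose protein neutralises activin, followed INHBA between sets but not between siRNA groups. Its log2 level (A_23_P110531) was 1.49, -0.11, 1.91 and -1.49 on control siRNA replicates 1 to 4. With KHSRP siRNA it was 0.92, -0.49, -2.06 and 0.94. All 4 odd-set arrays lay above all 4 even-set arrays, on average by 2.35 (5.11-fold). The siRNA difference was -0.62 (SE 0.89), and FST was lower with KHSRP siRNA in 4 of 4 pairs (mean -0.62, SD 0.25). Without KHSRP siRNA replicate 3, which leaves the sets unequal between the groups, the unpaired difference was 0.006, while leaving out whole pairs gave -0.70 to -0.51. In every pair the ligand gene and the inhibitor gene thus lay on opposite sides of their controls. LTBP1, the latency protein, was near background: its brighter probe (A_23_P43810) passed the background criterion on 1 control array and 2 KHSRP siRNA arrays of 4 each, at -4.46 to -3.54 and -4.04 to -2.73, and the other on none of 8. It could not be tested and is given no fold change.

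BMP4 encodes a BMP that signals to SMAD1 and SMAD5, and its pattern over the arrays was the mirror image of that of INHBA. Its log2 level (A_23_P54144) was 1.65, 2.88, 0.86 and 3.16 on control siRNA replicates 1 to 4. It was 1.64, 2.995, 3.23 and 0.96 on KHSRP siRNA replicates 1 to 4. The even set lay 3.46-fold above the odd set with no overlap. The siRNA groups nearly coincided, with a difference of 0.07 (SE 0.65) that turned to -0.003 when arrays were scaled to the median and to as low as -0.36 when control siRNA replicate 3 was left out. The latter leaves the sets unequal between the groups, and leaving out whole pairs gave 0.054 to 0.098.

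BMP6, a BMP ligand also known for its part in iron control, was dimmer. Its log2 level (A_23_P19624) was -1.61, -1.84, -1.26 and -2.04 with control siRNA. With KHSRP siRNA it was -0.77, -1.45, -1.39 and -0.49. The groups overlapped, with 2 KHSRP siRNA arrays inside the control range and 2 above it. The difference was 0.66 (SE 0.26), and it was positive in 4 of 4 pairs, from 0.39 to 0.84. With normexp background correction it was 0.31. BMP6 was 0.65 higher on the odd set, so that for this ligand both differences were of like size.

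TGFB1, which encodes TGF-beta 1, had 10 spots per array and varied less than INHBA, FST and BMP4. Its log2 level (A_24_P79054) was 0.87, 0.40, 0.47 and -0.13 with control siRNA. It was 0.96, 0.48, -0.07 and 0.41 with KHSRP siRNA. The siRNA groups spanned almost the same range, and the difference was 0.04 (SE 0.26) and turned to -0.03 with median scaling. TGFB1 was 0.50 lower on slide 2 than on slide 1 (SE 0.21, limma adjusted p = 0.422). TGFB2, the gene of a second TGF-beta ligand, was not well above background on any of the 8 arrays (A_24_P402438, -5.28 to -4.54) and was not tested.

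TGFBR2 encodes the type II receptor that binds TGF-beta. Its log2 level (A_23_P211957) was 2.32, 1.84, 2.50 and 1.71 on control siRNA replicates 1 to 4. It was 2.64, 2.19, 2.27 and 2.74 with KHSRP siRNA. Here too the odd set lay above the even set without overlap, by 0.55 on average. The siRNA difference was 0.37 (SE 0.21), positive in 4 of 4 pairs. A dim probe that the study names TGFBR2 (A_33_P3313825) matched no symbol through its accession, was well above background on 1 control array and 2 KHSRP siRNA arrays, and is not counted here. TGFBR1, the type I partner, was close to background (A_33_P3331451, -3.64 to -2.53 in control cells and -3.83 to -2.25 with KHSRP siRNA), and was well above background on 3 of 4 KHSRP siRNA arrays. Its difference was 0.25 (SE 0.37), positive in 2 of 4 pairs, and it was 0.004 without KHSRP siRNA replicate 1 and -0.05 without the whole first pair.

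SMAD7, whose product blocks receptor signalling, was 0.50, 0.16, 0.54 and -0.34 on the control arrays (A_23_P55518). It was 0.53, -0.63, -0.23 and 0.59 with KHSRP siRNA. The odd set held a tight range of 0.50 to 0.59 in both groups, while the even set spread from -0.63 to 0.16. The siRNA difference was -0.15 (SE 0.32) although 3 of 4 pairs were higher, since replicate 2 alone fell the other way. Without KHSRP siRNA replicate 2 it was 0.08.

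Of the 10 genes, 8 could be tested and 0 were called by limma at an adjusted p under 0.05, where 5.54% of all tested probes were called, and 1 had an unadjusted p under 0.05. For 0 of the 8 the siRNA groups did not overlap, against 14.8% of all probes. With the number in the value table as a block, 4 were called, INHBA, BMP6 and TGFBR2 higher and FST lower, where 30.1% of all probes were. With the set as a block instead, 2 were, and 16.1% of all probes. Since the genes were chosen on this contrast, nothing is read from these counts. Between the slides 0 of 8 were called by limma and 0% of all probes, with an unadjusted p under 0.05 for 1 of the 8 and for 2142 probes. INHBA is among these 8 and was chosen for its spread within groups, so nothing is read from it in the slide counts. Between the sets 5 of 8 did not overlap, INHBA, FST, BMP4, TGFBR2 and SMAD7, against 25.6% of all probes, and 7 of 8 were on average higher on the odd set, with BMP4 the exception, as were 44% of all probes. Differences past 2 on the log2 scale, such as those of INHBA and FST, were mostly of that direction on the whole array, with 163 probes higher on the odd set and 8 on the even set.

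**Figure D2:**
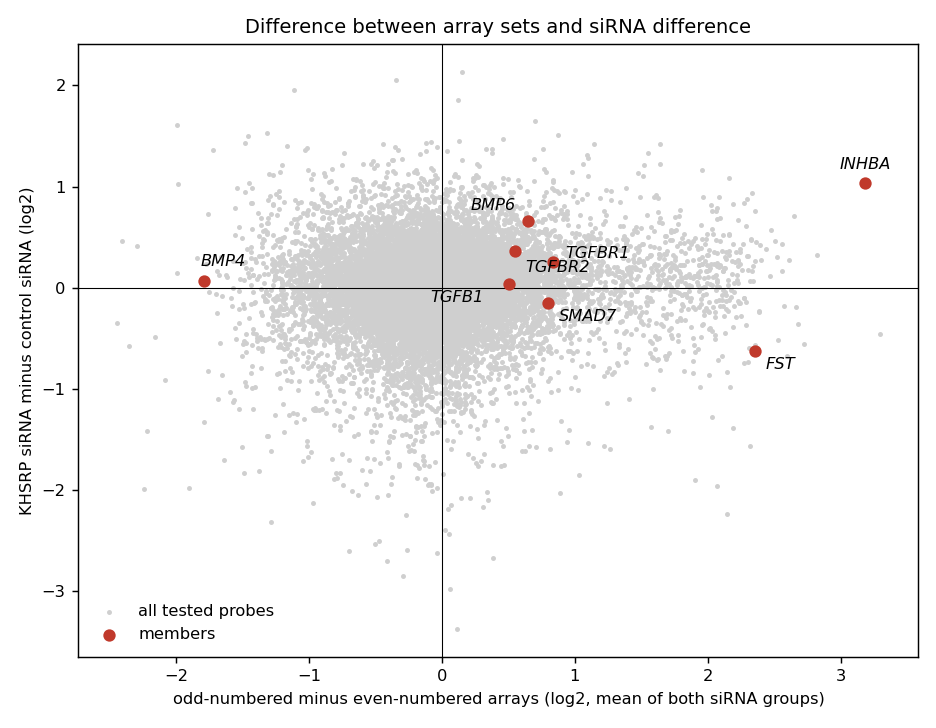
Mean log2 difference between the odd-numbered and even-numbered arrays (x axis) and between KHSRP siRNA and control siRNA arrays (y axis) for the 18761 tested probes (grey) and the 8 tested members (red). INHBA (3.18, 1.03) lies at the right edge, FST (2.35, -0.62) to the right and below 0, and BMP4 (-1.79, 0.07) on the left near the line of no siRNA difference.

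Over the 8 arrays the Pearson correlation with INHBA was 0.84 for FST, 0.91 for TGFBR2, 0.85 for BMP6, 0.77 for SMAD7, 0.76 for TGFBR1, 0.74 for TGFB1 and -0.92 for BMP4. After the group means were subtracted it was 0.98 for FST and -0.97 for BMP4. These are descriptions over 8 arrays that share the sets, and many genes ran the same way: of 11459 genes compared, 791 correlated with INHBA at over 0.9 and 647 at under -0.9. The 5 most like INHBA were GPX2 (0.998), GCHFR (0.998), REG3A (0.996), COL4A1 (0.996) and HEXA (0.996). GPX2 encodes a glutathione peroxidase and COL4A1 a chain of basement membrane collagen. The 5 most opposed were INSR (-0.998), RGS10 (-0.993), UBAP1L (-0.993), PRR36 (-0.992) and IFIT5 (-0.992). INSR encodes the insulin receptor.

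A further 112 genes of the pathway were taken by role, and the siRNA comparison asked whether they differed where the members were only described. Of these, 66 could be tested, and limma called 0 at an adjusted p under 0.05, with an unadjusted p under 0.05 for 9, and the methods' t-test called 0 after adjustment. With KHSRP siRNA 30 were on average higher and 36 lower, with a median log2 difference of -0.05 against 0.012 over all probes. With the number in the value table as a block, 17 of 66 (25.8%) were called, 10 higher and 7 lower, against 30.1% of all tested probes. By role this block called 37.5% of 8 ligands, 22.2% of 9 extracellular proteins and 28.6% of 7 receptors and co-receptors. It called 25% of 20 SMADs and regulators, 11.8% of 17 TGF-beta and activin targets and 60% of 5 BMP targets. All adjusted p-values below are limma's, the second with that block, whose pairs were chosen on these same arrays.

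The BMP target genes ID1, ID2 and ID3, which encode inhibitors of helix-loop-helix factors, lay lower with KHSRP siRNA in 4 of 4 pairs. ID2 (A_23_P143143) was 2.75, 3.92, 2.25 and 3.58 on control siRNA replicates 1 to 4. It was 0.86, 2.44, 2.41 and 0.48 with KHSRP siRNA. The groups overlapped only in that the 2 KHSRP siRNA arrays of the even set lay above control siRNA replicate 3, of the odd set. The ID2 difference was -1.57 (SE 0.54, adjusted p = 0.147 without the block and 0.0021 with it), and a second probe gave -1.70. It was called with the block in 4 of 4 settings that left out a pair. ID3 differed by -0.50 (adjusted p = 0.69 and 0.034) and ID1 by -0.34 (0.641 and 0.037), and each was called in 1 of those 4 settings. HEY1 and MSX2, the other tested genes of this list, were not called. With the block 3 of 5 BMP targets were thus called, all lower, where 30.1% of all tested probes were called in either direction. Like BMP4, ID2 was lower on the odd set, with an odd-minus-even difference of -1.505 against -1.79 for BMP4. Not all of the list shared this direction. Of the 5 tested BMP targets, 2 lay over 1 log2 higher on the even set and 1 on the odd set. The correlation with INHBA was -0.95 for ID1, -0.83 for ID2, -0.98 for ID3 and -0.63 for MSX2, but 0.93 for HEY1.

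Among 8 tested ligand genes, INHA, whose product replaces one activin subunit to form inhibin, differed by 0.99 (SE 0.35, adjusted p = 0.152 and 0.0083), at the dim levels of -4.76 to -3.15 in control cells and -3.24 to -2.36 with KHSRP siRNA. Only 1 of 4 control arrays measured it well above background, so it entered the test through the KHSRP group, where it was higher, and with normexp background correction the difference was 0.17 (adjusted p = 0.496). BMP7, a BMP ligand, differed by 0.41 (adjusted p = 0.40 and 0.037) and GDF15, a stress-induced ligand, by 0.32 (0.727 and 0.041). These 3 were the called ligands with the block, and all were higher in 4 of 4 pairs, but BMP7 and GDF15 were called in 1 of the 4 settings that left out a pair, and neither with the set as a block (adjusted p = 0.052 and 0.063). Of 9 extracellular proteins, ITGB8, an integrin subunit that activates latent TGF-beta, differed by -0.96 (SE 0.28, adjusted p = 0.0945 and 0.0094) and THBS1, the gene of thrombospondin 1, another activator, by -0.64 (0.688 and 0.037). ITGB8 was well above background on 4 control arrays and 3 KHSRP siRNA arrays, so it entered the test through the control group, where it was higher, and with normexp it differed by -0.24 (adjusted p = 0.286). THBS1 was called in 1 of the 4 settings that left out a pair. FSTL3, a follistatin-like activin inhibitor, differed by 0.67 (SE 0.22, adjusted p = 0.123 and 0.076), the opposite direction to FST, and it was not called in either fit. No direction was shared by the whole class, since the 2 called genes were lower and FSTL3 was the largest positive difference.

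Of 7 receptors and co-receptors, the decoy receptor BAMBI (0.26, adjusted p = 0.879 and 0.027) and the BMP co-receptor RGMA (0.33, adjusted p = 0.388 and 0.048) were called higher with the block. Without a pair, BAMBI was called in 0 of 4 settings and RGMA in 1, and RGMA had an adjusted p of 0.253 with the set as a block. ACVR2A, a type II activin receptor, differed by -0.33 (adjusted p = 0.648 and 0.276), but by -0.02 without KHSRP siRNA replicate 4 and by -0.03 with normexp. Of 20 SMADs and regulators, 5 were called with the block: SMAD1, SMAD4 and the SMAD anchor ZFYVE9 higher, and SMAD3 and the endosomal ZFYVE16 lower. ZFYVE16 differed by -0.56 (adjusted p = 0.334 and 0.0079), ZFYVE9 by 0.45 (0.070 and 0.011), SMAD3 by -0.37 (0.144 and 0.014) and SMAD4 by 0.34 (0.592 and 0.027). In the 4 settings that left out a pair, ZFYVE16 and ZFYVE9 were called in 4, SMAD3 in 3, SMAD4 in 1 and SMAD1 in 0. SKIL, a nuclear repressor of SMADs, differed by -0.71 (SE 0.54, adjusted p = 0.56 and 0.299) and was not called, and without KHSRP siRNA replicate 2 the value was -0.15.

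Of 17 TGF-beta and activin target genes, 5 were on average higher with KHSRP siRNA and 12 lower, with a median log2 difference of -0.08. The collagen IV genes COL4A1 and COL4A2 were called higher with the block and none was called lower, where 30.1% of all tested probes were called. COL4A1 differed by 0.53 (adjusted p = 0.809 and 0.0042) and COL4A2 by 0.36 (0.879 and 0.014). Without the block the COL4A1 difference ran from 0.03 without control siRNA replicate 4 to 1.05 without KHSRP siRNA replicate 3. When whole pairs were left out it ran from 0.50 to 0.55. With the set as a block neither was called (adjusted p = 0.219 and 0.401), while without a pair COL4A1 was called in 4 of 4 settings and COL4A2 in 3. TAGLN, which encodes an actin-binding protein of contractile cells, had the largest difference, -1.03 (SE 0.42, adjusted p = 0.213 and 0.070), and was not called in either fit. Between the sets 7 of the 17 differed by over 1 on the log2 scale, all higher on the odd set as INHBA was. Over all 66 genes 20 did, 14 higher on the odd set and 6 on the even set, where 7.07% of all probes did, 4.18% higher on the odd set and 2.88% on the even set. This is a description, since the sets were read from the data.

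**Figure D3:**
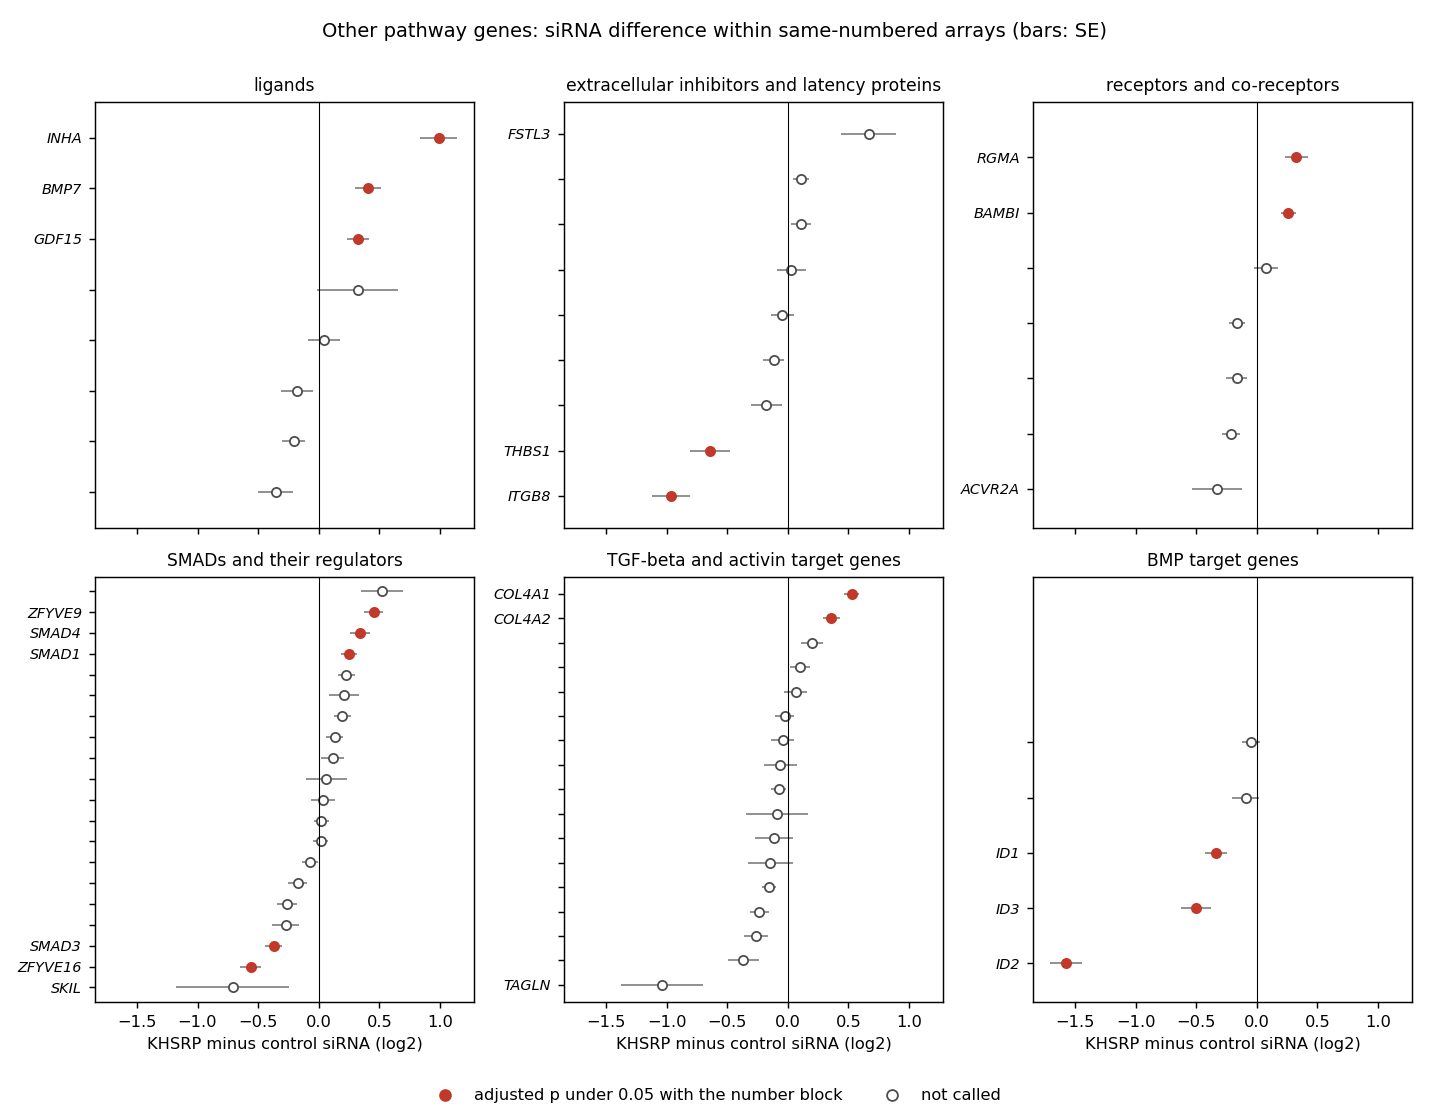
Mean log2 difference, KHSRP siRNA minus control siRNA, for the 66 tested pathway genes other than the members, in panels by role; bars are standard errors from the fit with the array number as a block, filled points were called in it and open points were not, and gene names are given for called genes and for the largest differences of each role. ID1, ID2 and ID3 are the called BMP targets and all lie left of 0, while COL4A1 and COL4A2 lie right of 0.

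**Figure D4:**
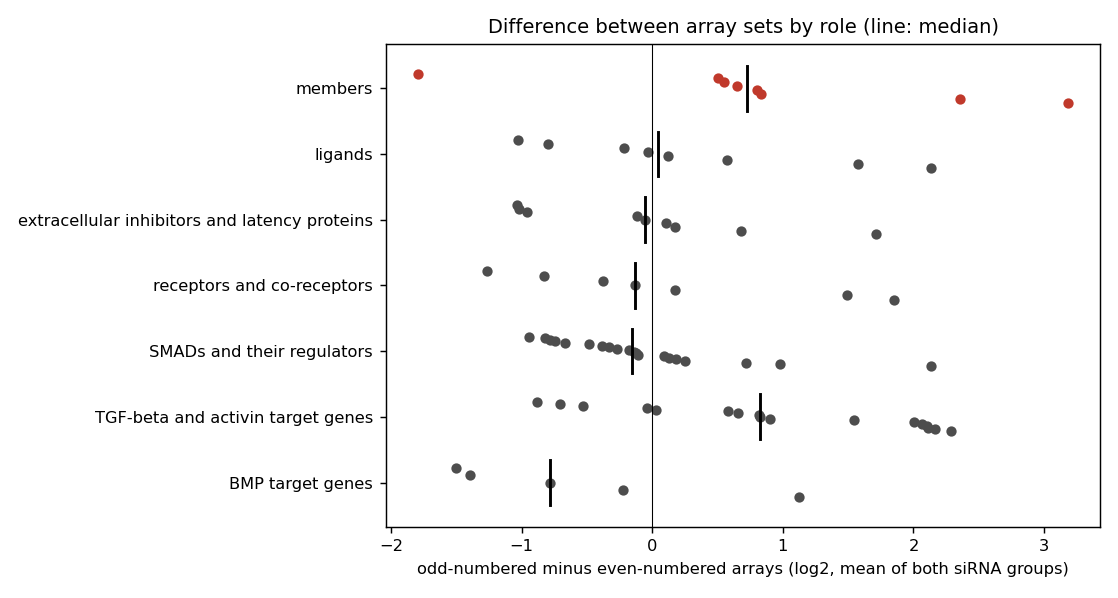
Mean log2 difference between the odd-numbered and even-numbered arrays, averaged over both siRNA groups, for each tested member (red) and each of the 66 other pathway genes (grey) by role; the black line is the median of a role. The members run from BMP4 at -1.79 to INHBA at 3.18, and the 7 TGF-beta and activin targets past 1 all lie on the right.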

How the data were processed

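Messenger RNA of KYSE850 cells was hybridised to 8 one-colour Agilent arrays, 4 per siRNA group, grouped by the labels. Per the file headers, spots were extracted with Agilent Feature Extraction 11.5.1.1, and the deposited scanner values are linear fluorescence intensity, background-subtracted and detrended within the array but not scaled between arrays. The authors also deposited a table of log2 values, used for an alternative and for the array numbers.

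Control and outlier spots were left out. The rest were log2-transformed, averaged per probe and set relative to the 75th percentile of the array. Testing required that, on all 4 arrays of 1 group or both, a share of 0.5 or more of the spots of a probe was well above background. Symbols came from RefSeq accessions (GRCh38.p14) for 27241 of 42405 probes (64.2%), and the brightest tested probe stood for a gene. The number of arrays limits the precision. The comparison used limma 3.58.1 (R 4.3.3) without a block, two-sided, with Benjamini-Hochberg adjustment over 18761 probes. The fit was tested on simulated data.

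The members, lists and tests were chosen with earlier results of these data known. Named genes were the members, KHSRP, in each role list the 2 largest differences and any called gene, and the 5 genes most and least correlated with INHBA. Genes called only with a block were named after their values were seen. The study's own lists supplied the predicted miRNA targets.

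Same-numbered arrays were taken as pairs by the numbers of the value table. The reason was that their deviations from the group means correlated at 0.52, 0.43, 0.83 and 0.84 for numbers 1 to 4. Control and KHSRP siRNA arrays of one set but of different numbers correlated at 0.38 to 0.42, close to the value for number 2. This choice was made on these same data, so p-values with the number as a block depend on it. By scanner-file numbers replicates 3 and 4 correlated at -0.67 and -0.64, so those numbers did not pair the arrays. Alternatives covered scaling, normexp background correction (offset 50, on the median spot brightness), the value table, the filter, blocks, array weights, an intensity trend, the methods' t-test and leaving out each array. The set as a block and leaving out each pair were chosen after seeing the data.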

Additional observations from a re-analysis of the deposited data

Results flagged for a closer look

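Of 44 groups of 4 arrays looked at, over the members and KHSRP, 1 held an array far from the others. For the dimmer KHSRP probe (A_24_P134235), control siRNA replicate 2 lay at -1.86, and the nearest control array at -1.10, a gap of 0.832 of the range of the group. Chance gives about 1 such group in 20.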

How the results depend on the processing

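The brighter KHSRP probe stayed called in all alternatives, with a log2 difference of -3.46 to -3.27. The number of called probes was 1039, against 570 with median scaling, 319 with no filter on dim probes, and 489 to 766 when 1 array was left out. Of the other pathway genes 0 were called, and 0 in each setting that left out an array, but 1 (ZFYVE9) was called with array weights. With the set as a block 5 of 66 were called (INHA, ITGB8, SMAD3, ZFYVE9 and ID2), where 3027 of 18761 probes (16.1%) were. INHA and ITGB8 entered the test only through the group where each was higher. Between slides 350 probes were called with median scaling, 5 with normexp, 40 with no filter and 242 with the set as a block.

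With the replicate block by the numbers of the value table, 5644 probes (30.1%) and 17 of 66 other pathway genes (25.8%) were called. With each pair left out, 3139 to 4374 probes and 8 to 12 of these genes were called. With the replicate block by scanner-file numbers, which do not pair the arrays, 156 probes and 0 of these genes were called.

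The sign of the BMP4 and TGFB1 differences changed with scaling or with the array left out, as did that of FST and SMAD7 with 1 array left out. INHBA, BMP6 and TGFBR2 were higher with KHSRP siRNA under each scaling, background, filter, value table, block and left-out array or pair. Array weights, the intensity trend and the t-test were run on all tested probes, but their values are not given for the members. With normexp the sizes of BMP4 (0.04), BMP6 (0.31), FST (-0.41) and TGFBR1 (0.11) fell by over 1.5 times, as did those of INHA, ITGB8, ACVR2A, RGMA, SKIL, ZFYVE9, ZFYVE16, TAGLN and COL4A1. TGFB2 and LTBP1 were too close to background to be compared, and INHA, ITGB8, ACVR2A and TGFBR1 were dim.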
